A study of Mus musculus with 36 samples.

Results

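A set of 10 genes named for their liver expression, Alb, Apoa1, Apoa4, Fabp1, Ahsg, Hpx, Ambp, Serpinc1, Hamp and Orm1, were read on 36 arrays of mouse skeletal muscle. Every probe set annotated to exactly 1 of these symbols was taken, which gave 12 of the 12488 probe sets on the array. Of the 12, 11 passed the filter on low signal, and all 10 genes were covered by them, out of 6793 genes tested. The genes were chosen because earlier results of these data had shown them to vary together on the 8 diaphragm arrays, so their diaphragm levels, the diaphragm difference between genotypes and the contrast of diaphragm with limb are given as descriptions without a test. The genotype difference in limb muscles was not used for the choice and was tested.

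The study compared wild-type mice with mice transgenic for alpha tropomyosin slow, a thin filament protein of slow muscle fibres, as a model of nemaline myopathy, a muscle disease marked by rod-shaped protein deposits. Muscles of both genotypes were frozen at 7 and 10 months of age. Diaphragm, gastrocnemius and tibialis anterior each had 4 arrays per genotype, 2 at each age, while extensor digitorum longus (EDL) and plantaris had 3 per genotype, 2 at 7 months and 1 at 10 months. The labels used here give neither the promoter and form of the transgene nor the mouse strain, and each array carried RNA pooled from 3 to 5 mice, with 8 micrograms of total RNA labelled. Whether the replicates are separate pools is not labelled, so p-values measure array-to-array spread that may be technical. Skeletal muscle markers were high throughout: Acta1, skeletal alpha actin, gave a signal of 22949 to 85872 on diaphragm arrays and 24894 to 71491 on limb arrays.

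The liver secretes most proteins of blood plasma. Hepatocytes, its main cells, make carriers such as albumin and the apolipoproteins, inhibitors that restrain clotting and other proteases, and proteins that bind haem and iron or rise in inflammation. These genes are switched on in hepatocytes by a shared group of transcription factors, among them the forkhead box A proteins, HNF1, HNF4 and the C/EBP family. Skeletal muscle is not a known major source of these proteins. In the body the liver lies against the abdominal face of the diaphragm.

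The promoters of 3 of the genes, which encode an abundant plasma carrier, a protein kept inside the cell and an apolipoprotein, are printed to show what such liver promoters look like. Alb and Fabp1 hold matches to both marked motifs, and Apoa1 holds the forkhead match. RefSeq promoter sequences (build GRCm38.p6) were found for 9 of the 10 genes, all but Orm1. The 250 bases upstream of the transcription start follow, 5′ to 3′, at chr5:90460620-90460869 for Alb, chr6:71199629-71199878 for Fabp1 and chr9:46228380-46228629 for Apoa1, all on the plus strand. Capitals mark the forkhead sequence TGTTTGC and GTTAAT, which is only a part of the HNF1 element, on either strand.
Alb: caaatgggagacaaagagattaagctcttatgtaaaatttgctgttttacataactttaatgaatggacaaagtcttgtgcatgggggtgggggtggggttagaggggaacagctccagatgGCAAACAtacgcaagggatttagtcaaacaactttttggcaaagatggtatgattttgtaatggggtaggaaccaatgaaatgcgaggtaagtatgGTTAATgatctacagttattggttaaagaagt
Fabp1: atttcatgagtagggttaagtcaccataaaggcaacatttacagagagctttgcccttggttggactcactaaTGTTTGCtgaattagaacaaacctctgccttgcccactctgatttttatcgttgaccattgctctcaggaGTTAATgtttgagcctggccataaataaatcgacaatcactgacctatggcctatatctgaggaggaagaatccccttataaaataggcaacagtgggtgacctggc
Apoa1: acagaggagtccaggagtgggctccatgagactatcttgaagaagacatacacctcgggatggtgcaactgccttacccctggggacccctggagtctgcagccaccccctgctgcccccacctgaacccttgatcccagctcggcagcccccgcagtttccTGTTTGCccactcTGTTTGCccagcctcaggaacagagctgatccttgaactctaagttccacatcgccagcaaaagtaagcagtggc

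TGTTTGC was present in 5 of the 9 promoters (Alb, Ahsg, Ambp, Apoa1 and Fabp1), and in 4.3% of all 32851 mouse promoters read over the same length. The wider form TGTTTNC, which contains it, was present in the same 5 and in 17.8% of all. GTTAAT was found in Alb and Fabp1 and in 6.43% of all promoters. The C/EBP sequence TTGCNNAA was found in Alb, Fabp1, Hpx and Ahsg and in 9.56% of all, and TATAAA in Fabp1 and in 12.4% of all. All were searched on both strands, and the 5 motifs were chosen with the genes known. A match describes these letters in this window and is not evidence that a factor was bound.

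All 10 genes were far higher on most diaphragm arrays than on limb arrays, and within the diaphragm they rose and fell over the same arrays. Signals are MAS5 intensities scaled to a trimmed mean of 500 per array, and values under 100 are read as low, with no order among them. In 7 of the 10 genes every diaphragm array lay above every one of the 28 limb arrays, a pattern seen in 1.03% of probe sets, but this contrast was used to choose the genes. The exceptions were Apoa4, Hamp and Orm1, with 6, 6 and 5 diaphragm arrays above all limb arrays. Since whole muscles were pooled and extracted, fewer cells of a type and less RNA per cell cannot be told apart.

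**Figure D1:**
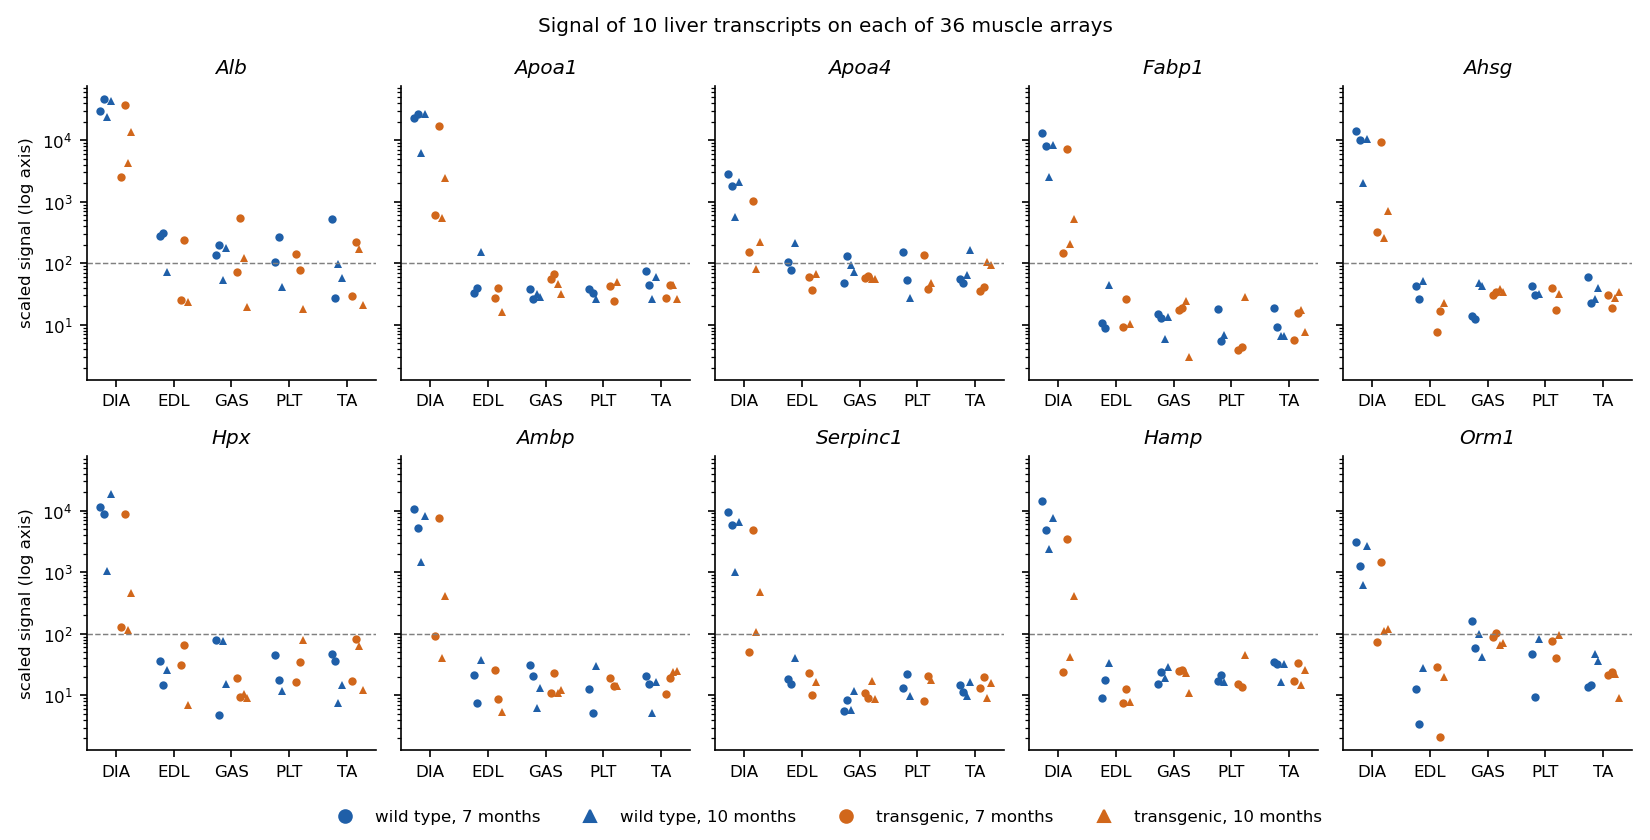
Scaled signal (log axis) of the 10 liver transcripts on each of 36 arrays, by muscle: diaphragm (DIA), extensor digitorum longus (EDL), gastrocnemius (GAS), plantaris (PLT) and tibialis anterior (TA). Each point is 1 array, coloured by genotype and shaped by age, and the dashed line marks a signal of 100. Diaphragm points lie mostly above the limb points, and 3 of the transgenic diaphragm arrays lie below the wild-type ones.

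Alb encodes albumin, the main carrier protein of plasma. Its signal on the wild-type diaphragm arrays was 29287 and 46042 at 7 months and 23435 and 43939 at 10 months (replicates 1 and 2 in each case), against 2519 and 36688 at 7 months and 4212 and 13627 at 10 months on the transgenic arrays. On the limb arrays it lay between 18.1 and 548 (median 102.2), with 14 of 28 arrays at 100 or more. Transgenic replicate 2 at 7 months thus carried more Alb than the first wild-type array at 7 months, and the genotypes overlapped.

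Apoa1 encodes the main protein of high-density lipoprotein. Wild-type diaphragm arrays gave 22981, 26817, 6114 and 26611, in the same order, and transgenic arrays 609, 16855, 548 and 2453. The limb arrays ranged from 16.02 to 154 (median 38.3). The first wild-type array at 10 months was the lowest of its genotype, and transgenic replicate 2 at 7 months lay above it, so the groups overlapped.

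Apoa4 encodes an apolipoprotein that the mouse makes in gut as well as liver. Its signal was 2799.8, 1804, 563 and 2053 on wild-type diaphragm arrays and 151, 1035, 80.6 and 221 on transgenic ones. Limb arrays reached 212 (lowest 27.0, median 60.8), above 2 of the transgenic diaphragm arrays. Fabp1 encodes the fatty acid binding protein of liver, which stays inside the cell and is not a plasma protein. It measured 13242, 8006, 2527 and 8243 on wild-type and 149, 7106, 202 and 521 on transgenic diaphragm arrays, and at most 44.7 on limb arrays (lowest 3.03, median 10.6). Both genes had the same 3 low transgenic arrays and 1 transgenic array within the wild-type range. A second Fabp1 probe set failed the filter, with diaphragm signals of 15.9 to 88.9 and limb signals of up to 138.

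Among the inhibitors and binding proteins, Ahsg encodes fetuin A, a plasma protein that keeps calcium phosphate from precipitating. Its diaphragm signals were 14026, 9907, 1991 and 10604 in wild type and 319, 9429, 262 and 703 in transgenic arrays, with limb arrays between 7.66 and 59.2 (median 31.1). Ambp encodes the precursor of alpha-1-microglobulin and bikunin, a carrier of haem breakdown products and a protease inhibitor. It gave 10581, 5168, 1456 and 8151 in wild type and 93.6, 7573, 40.3 and 414 in transgenic diaphragm, against 5.10 to 37.8 in limb (median 14.7). Serpinc1 encodes antithrombin, the main inhibitor of thrombin. It gave 9342, 5784, 996 and 6617 in wild type and 51.4, 4934, 107 and 477 in transgenic diaphragm, against 5.63 to 40.0 in limb (median 13.1). In all 3 genes the lowest transgenic arrays were replicate 1 at each age, and for Ambp both were under 100.

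Hpx encodes hemopexin, which binds free haem in plasma. Wild-type diaphragm arrays gave 11412, 8762, 1065 and 18830.0, and transgenic arrays 127, 8969.8, 117 and 456, with limb arrays between 4.73 and 82.1 (median 18.3). A second Hpx probe set gave 3929, 1804, 624 and 4412 in wild type and 171, 2533, 116 and 241 in transgenic diaphragm. The 2 probe sets ordered the arrays in a like way, with wild-type replicate 2 at 10 months highest and the first transgenic array of each age lowest.

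Hamp encodes hepcidin, the liver hormone that limits iron entry into blood, and Orm1 an acute-phase glycoprotein. Hamp measured 14561, 4826, 2369 and 7515 on wild-type diaphragm arrays and 24.2, 3437, 41.2 and 407 on transgenic ones, so that replicate 1 of both transgenic ages lay within the limb range of 7.46 to 44.6 (median 18.3). Orm1 measured 3053, 1266, 611 and 2686 in wild type and 73.8, 1442, 112 and 118 in transgenic diaphragm, and its 3 low transgenic arrays lay within the limb range of 2.10 to 163 (median 38.1). Another probe set is annotated to both Orm2 and Orm1 and was left out by the rule.

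**Figure D2:**
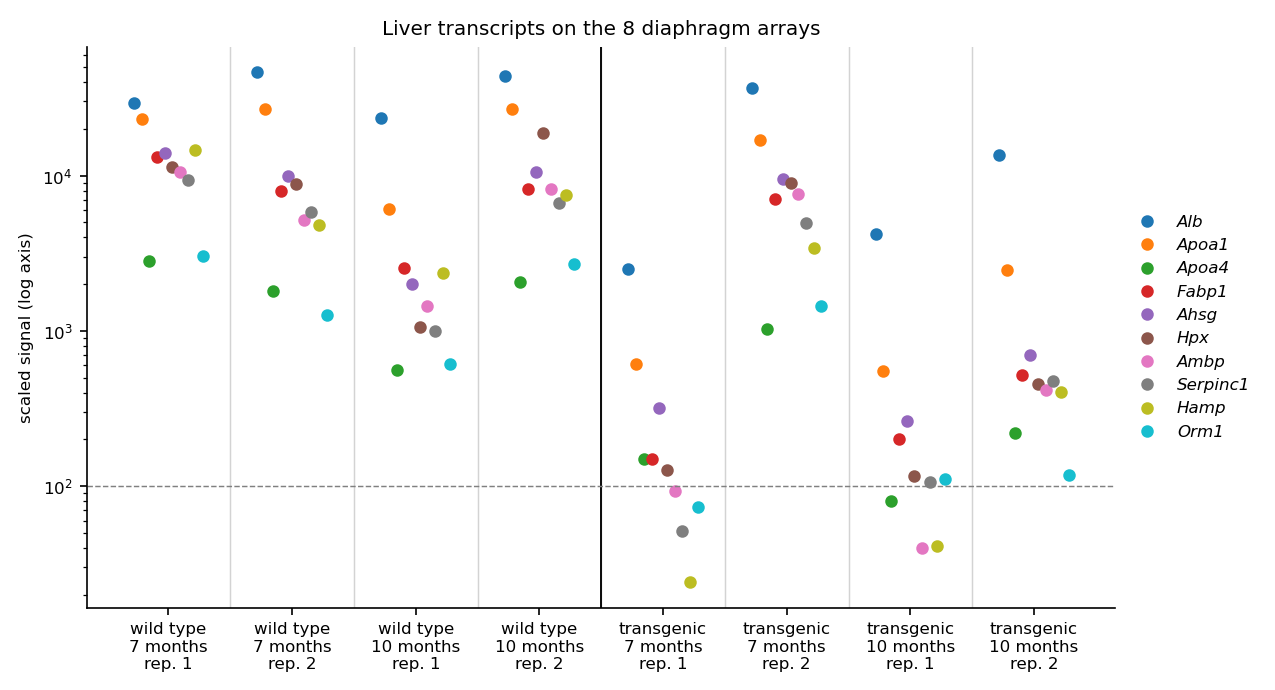
Scaled signal (log axis) of the 10 liver transcripts on each of the 8 diaphragm arrays, 4 wild type to the left of the vertical line and 4 transgenic to its right, with the dashed line at 100. Heights of different transcripts come from different probe sets and are not to be compared, but all 10 drop together on transgenic replicate 1 at both ages and stand high on transgenic replicate 2 at 7 months.

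The arrays kept nearly the same order for every gene. The mean log2(signal + 50) of the 10 genes was 13.38 and 12.79 on the wild-type arrays at 7 months (replicates 1 and 2) and 11.001 and 13.18 at 10 months. On the transgenic arrays it was 7.90 and 12.59 at 7 months and 7.96 and 9.49 at 10 months. On limb arrays it lay between 6.09 and 6.78. The 4 wild-type arrays and transgenic replicate 2 at 7 months were the 5 highest for 10 of 10 genes, transgenic replicate 2 at 10 months was the sixth for 10 of 10, and both transgenic replicate 1 arrays were the 2 lowest for 10 of 10. The highest array was wild-type replicate 1 at 7 months for 7 genes, wild-type replicate 2 at 7 months for 2 and wild-type replicate 2 at 10 months for 1.

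Pearson correlations of log2(signal + 50) between the genes over the 8 diaphragm arrays ran from 0.88 (Alb with Orm1) to 0.99 (Ahsg with Ambp), with a median of 0.97 over 45 pairs. The points share arrays, RNA pools and scaling. The gap between the 5 high and 3 low arrays may carry much of these values, which was not tested. After the mean of each genotype was subtracted the median was 0.96 and the lowest 0.77, and after the mean of each genotype and age group it was 0.96 with a lowest value of 0.80. Without the 2 arrays farthest from the median it was also 0.96 (lowest 0.77, n = 6), and Spearman's rho had a median of 0.95. Over the 28 limb arrays the same pairs had a median of 0.16, between -0.44 and 0.71, at signals that were mostly under 100.

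Replicates of the same genotype and age differed widely. Transgenic replicate 2 at 7 months was 6.86-fold (Apoa4) to 70.6-fold (Hpx) above replicate 1 in the 6 genes with replicate 1 at 100 or more. With replicate 1 set to 100 it was at least 75.7-fold higher for Ambp, 49.3-fold for Serpinc1, 34.4-fold for Hamp and 14.4-fold for Orm1. The wild-type pair at 10 months differed by 1.87-fold (Alb) to 17.7-fold (Hpx), replicate 2 being the higher for all 10 genes. Transgenic replicate 2 at 7 months exceeded wild-type replicate 1 at 10 months for all 10 genes, by 1.45-fold (Hamp) to 8.42-fold (Hpx), where 38.1% of all probe sets lay that way round. As a result, no gene had its 4 wild-type arrays all above its 4 transgenic arrays, which 1.65% of probe sets had.

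Genes differed in how far they moved along this shared order. Between the lowest and highest diaphragm array, Alb spanned 18.3-fold and Apoa1 49.0-fold, while Hamp spanned at least 146-fold and Ambp at least 106-fold with the low end set to 100. The log2 level of Alb changed by 0.62 for each unit of the mean of the other 9 genes, that of Apoa4 by 0.70 and that of Orm1 by 0.79. The slopes of Apoa1, Ahsg and Fabp1 were 1.004, 1.003 and 1.07, those of Serpinc1, Ambp and Hpx 1.13, 1.21 and 1.23, and that of Hamp 1.27. How far the response of each probe set enters these slopes was not tested.

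**Figure D3:**
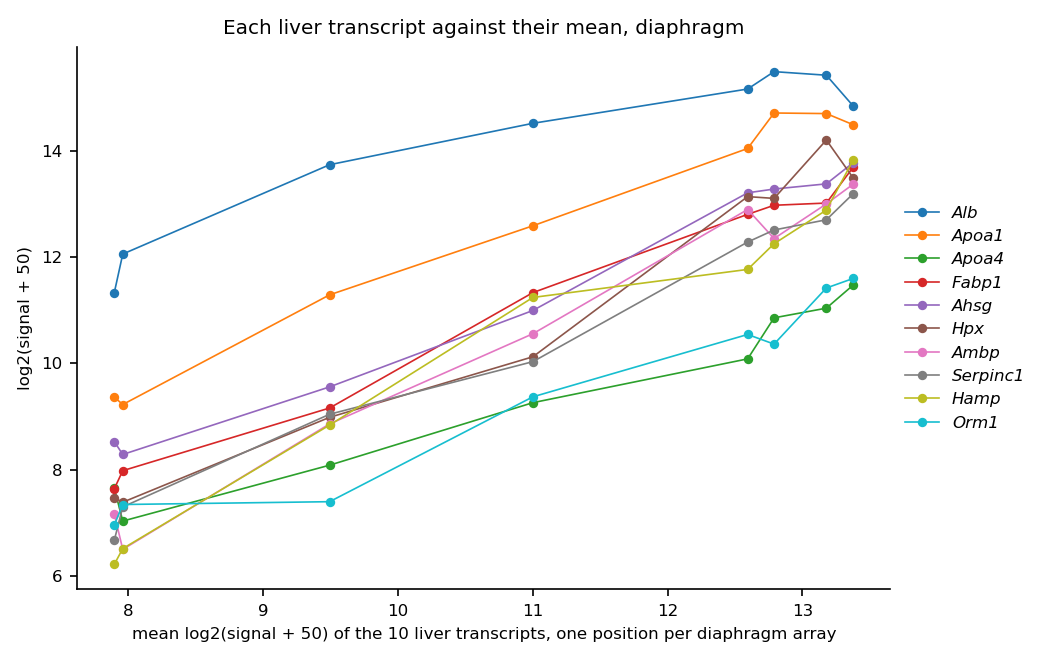
log2(signal + 50) of each of the 10 liver transcripts against their mean, with 1 position per diaphragm array and lines joining the arrays of a transcript. All lines climb, with the shallowest slope for Alb and steep slopes for Hamp, Hpx and Ambp, and the 3 arrays on the left are transgenic.

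Single departures from the shared order were seen. From wild-type replicate 2 to wild-type replicate 1 at 7 months Hamp was 3.02-fold higher, Orm1 2.41-fold and Ambp 2.05-fold, whereas Alb was 0.64-fold and Apoa1 0.86-fold. Hamp therefore had its highest value on an array where Alb was not at its highest. From wild-type replicate 2 at 7 months to wild-type replicate 2 at 10 months Hpx was 2.15-fold and Orm1 2.12-fold higher, while Apoa1 was at 0.99-fold and Alb at 0.95-fold. Ambp and Hamp were 1.58-fold and 1.56-fold higher in this second comparison. The cause of these departures was not tested.

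The genotype difference in the diaphragm was negative for all 10 genes. Wild-type and transgenic signals were 35676 ± 11051 and 14261 ± 15729 for Alb, 20631 ± 9837 and 5116 ± 7875 for Apoa1, and 7318 ± 5266 and 977 ± 1649 for Hamp (mean ± SD, n = 4 each). The log2 difference, transgenic minus wild type, ran from -1.997 (Alb) to -4.22 (Hamp), with a median of -3.22 over the genes against 0.00 over all probe sets tested. With the diaphragm arrays fitted alone, the SE of these differences lay between 0.55 and 1.16. The fit of all 36 arrays gave SEs of 0.40 to 0.75, since it pools the spread with limb arrays on which these genes were near background.

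In the fit of all arrays 9 of the 10 genes were past an adjusted p of 0.05, all but Alb, beside 3.42% of probe sets called in either direction and 2.23% called lower (limma, Benjamini-Hochberg). The genes were chosen from this contrast, so nothing is read from that count. It depended on the fit and on the arrays: 0 of 10 were past the threshold with the diaphragm arrays alone, where 2 probe sets in all were called, 5 with scan day as a block, and 0 on replicate 2 arrays alone. The count was 9 with replicate number as a block, and 10 with array weights or with a pseudocount of 200. With replicate number as a block the median log2 difference stayed at -3.22. It was -4.26 without transgenic replicate 2 at 7 months and -2.20 without transgenic replicate 1 at 7 months.

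Replicate number, which also divides arrays with a filled run record (number 1) from those with a blank record (number 2), moved with these levels. The mean log2 of the 10 genes differed by -4.26 between genotypes among the number 1 arrays and by -1.94 among the number 2 arrays (2 per genotype in each). With scan day as a block the median log2 difference was -2.75. The level was higher on number 2 than on number 1 in 3 of the 4 diaphragm groups, wild type at 7 months being the exception. The part of replicate number in the genotype difference was not tested.

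At 10 against 7 months the 10 genes differed in the diaphragm by a median of -1.30 log2, on the arrays used to choose them, from -0.27 ± 0.68 (Alb) to -1.72 ± 0.69 (Ambp; estimate ± SE), when both genotypes were combined. None was past the adjusted threshold in limma, where 0.0% of probe sets were called. At an unadjusted p under 0.05 were 7 of the 10 genes, which vary together on these arrays, and 565 of 9322 probe sets. At 7 months the genotype difference was -1.92 ± 1.06 for Alb and -4.05 ± 1.02 for Hamp, and at 10 months it was -2.07 ± 1.06 and -4.39 ± 1.02. These intervals overlap widely, with 2 arrays per group.

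In limb muscles the signal allowed the genotype comparison for few of the genes. Alb and Apoa4 reached 100 on at least 6 limb arrays (14 and 7 of 28). The other 8 had passed the filter through the diaphragm arrays, 6 of them with no limb array at 100, so their limb values lay near background and a difference between genotypes was not detectable there. Limb signals of 100 or more occurred in 24 of 280 gene and array combinations.

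Averaged over the 4 limb muscles the log2 difference was -0.47 ± 0.37 for Alb (limma adjusted p = 0.6251) and -0.29 ± 0.22 for Apoa4 (limma adjusted p = 0.610), and neither passed the test, where 0.397% of probe sets were called. Estimates of the other 8 lay between -0.14 (Ahsg) and 0.06 (Orm1), beside a median of -0.03 over all probe sets tested. In EDL the difference was -1.04 ± 0.78 for Alb and -0.74 ± 0.47 for Apoa4 (limma adjusted p = 0.925 and 0.863), where 0.0107% of probe sets were called. The Alb signals there ran from 73.2 to 308 in wild-type and from 23.6 to 242 in transgenic muscle, with 3 arrays each, and the groups overlapped. Those of Apoa4 ran from 77.0 to 212 in wild-type and from 37.4 to 65.9 in transgenic EDL. All its transgenic values there were under 100, where values have no order, so little can be read from its estimate. In gastrocnemius, plantaris and tibialis anterior, where 0.0%, 0.0% and 0.15% of probe sets were called, neither gene passed the test, and their estimates lay between -0.48 and -0.01.

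Labels and RNA quality of some limb arrays bear on these values. The run record of a transgenic gastrocnemius array (replicate 1 at 7 months) names plantaris, and that of a wild-type one (replicate 1 at 7 months) gives an age of 6 months, while the labels were followed here. The ratio of 3' to 5' Gapdh signal reached 3.32 on wild-type gastrocnemius replicate 2 at 10 months and 3.69 on wild-type plantaris replicate 2 at 7 months. Without any single one of these 4 arrays, neither Alb nor Apoa4 passed the test.

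**Figure D4:**
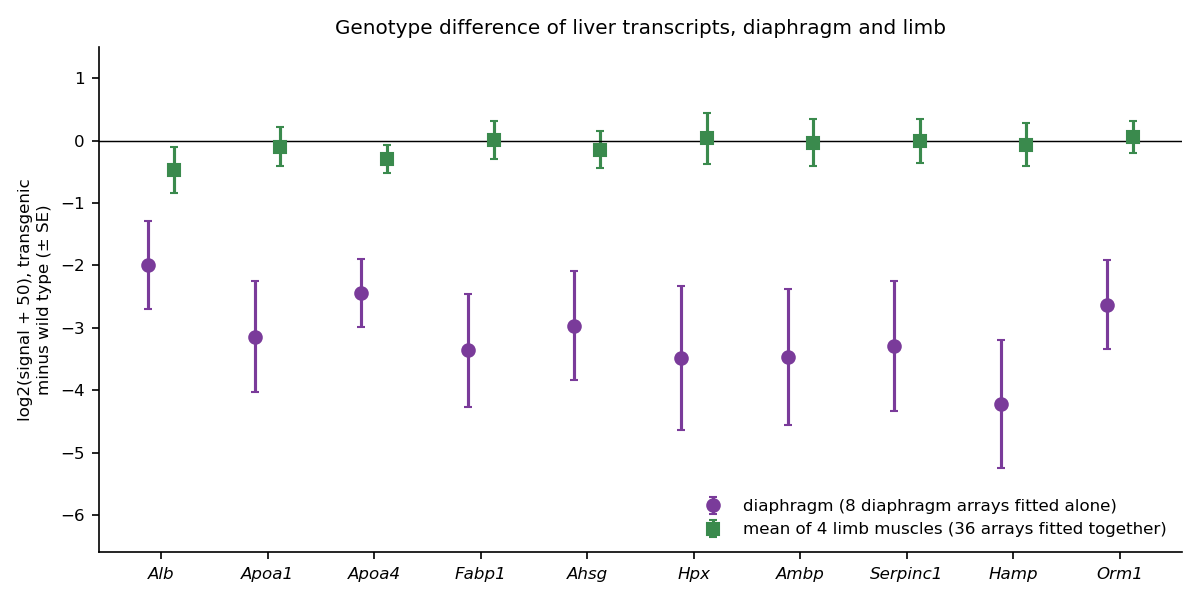
Difference between transgenic and wild type in log2(signal + 50) for the 10 liver transcripts, as estimate ± SE: circles for the diaphragm (8 diaphragm arrays fitted alone) and squares for the mean of 4 limb muscles (36 arrays fitted together). Diaphragm estimates run from -1.997 to -4.22 and limb estimates from -0.47 to 0.06. In limb every transcript but Alb lay under a signal of 100 on most arrays.

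Other genes that hepatocytes express followed the same arrays. Of 99 such genes on the array, in lists of secreted proteins, metabolic enzymes and transcription factors, 86 were tested, and 67 of these had a correlation above 0.9 with the mean of the 10 genes over the 8 diaphragm arrays, compared with 2.14% of the 6693 genes tested that were in neither set. In the fit of all arrays 62 of the 86 were called lower in transgenic diaphragm and 0 higher, beside 2.23% of probe sets called lower. With the diaphragm arrays alone 0 of the 86 were called (74 at an unadjusted p under 0.05), with scan day as a block 18, and without single diaphragm arrays between 12 (without wild-type replicate 2 at 10 months) and 73 (without wild-type replicate 1 at 10 months). Without wild-type replicate 1 at 7 months 24 were called, without transgenic replicate 1 at 7 months 15, and without transgenic replicate 1 at 10 months 28. These lists were drawn up with earlier results known and share the arrays of the 10 genes, so they add no independent evidence.

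The secreted proteins (47 genes tested) had a median correlation of 0.97 with the mean of the 10 genes and a median log2 difference of -2.15 in the diaphragm. Serpinf2 and F7, named here after their values were seen, went less with the list. Serpinf2 had its lowest correlation, -0.03, with 206 to 1049 on diaphragm arrays and a limb median of 673. F7 had a correlation of 0.81, with 981 to 3080 on diaphragm arrays and a limb median of 1085. Neither was called. Serpina1e, an alpha-1-antitrypsin gene, gave 6799.9 to 24020.1 on wild-type and 850.4 to 18193 on transgenic diaphragm arrays. Its relatives Serpina1b and Serpina1c, and the major urinary protein gene Mup3, had correlations of 0.99 each, but the members of these families are near-identical in sequence and their probe sets may share target. Plg, the precursor of the clot-dissolving enzyme plasmin, ranged from 2697 to 14781 in wild type and from 381 to 8091 in transgenic arrays. Apoc1, a lipoprotein component, gave 2537 to 15401 in wild type and 471, 9552, 353 and 1035 in transgenic arrays, with the same array high.

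Among the secreted genes with the lowest diaphragm signals, Crp had a correlation of 0.97, with wild-type values of 139.5 to 525 and transgenic values of 61.2 to 379. Mbl1, a mannose-binding lectin, had a correlation of 0.89, Igfbp1 of 0.75 and Orm2 of 0.54. Orm2 measured 1102 on wild-type replicate 2 at 10 months and at most 184 on the other diaphragm arrays. Of these 4 genes Crp alone was past the threshold in the fit of all arrays. With the diaphragm arrays alone 0 of the 86 genes of the hepatocyte lists were, so nothing is read from that call.

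The metabolic enzymes (33 tested, 26 called lower, median log2 difference -2.27) had a median correlation of 0.96. Cps1, the entry enzyme of the urea cycle, gave 2209 to 15554 in wild-type and 245 to 9359 in transgenic diaphragm. Cyp2e1 and Cyp3a11, drug-metabolising cytochromes, and Fbp1, an enzyme of glucose synthesis, were ordered over the arrays in the same way, with correlations of 0.99, 0.98 and 0.98. Tat, which degrades tyrosine, measured 16379.7 on wild-type replicate 1 at 7 months and between 139 and 4064 on the other 7 arrays. Fah, also of tyrosine breakdown, spanned less, from 564 to 6993. The enzymes with the lowest signals, Cyp2c29, Mat1a, Hpd and Cyp2d9, had correlations of 0.81, 0.73, 0.85 and 0.40, and none of these 4 was called.

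Of the transcription factors that act on such genes 10 were on the array, and each reached 100 on some diaphragm array. Of these, 6 passed the filter on low signal and were tested. Their median correlation was 0.91, and 1 was called lower in the fit of all arrays. That was Nr5a2, a nuclear receptor of bile acid synthesis, with 92.2 to 372 in wild-type and 21.0 to 184 in transgenic diaphragm (log2 difference -1.15 ± 0.29). It was not called with the diaphragm arrays alone, so nothing is read from that call either. Foxa3, of the forkhead group, gave 74.3 to 218 and 23.5 to 92.0, and Nr1h4, the bile acid receptor, 189 to 709 and 69.1 to 329, and neither was called. Nr0b2 and Nr1i3 had correlations of 0.89 and 0.80 and were not called, and Onecut1 had 0.26. Hnf4a, chosen after its values were seen, failed the filter and measured 530.4 and 188 on the wild-type arrays at 7 months and at most 77.2 on the other 6.

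The 12 genes outside the set whose diaphragm pattern was most like the mean of the 10 had correlations of 0.992 to 0.997 over 8 arrays. In order they were Cyp2d26, Apoc1, Serpina1e, Fgb, Apoa5, Fgg, Serpina1c, Serpina1b, Sult2a2, Mup3, Mug-ps1 and Apoh. Cyp2d26, a cytochrome of liver, led with 6341, 3985, 933 and 3612 on wild-type and 43.7, 3062, 45.5 and 288 on transgenic arrays. Fgb and Fgg encode fibrinogen chains, and Apoa5 and Apoh encode apolipoproteins of plasma. In total 210 genes had a correlation above 0.9 and 92 one below -0.9. Of the 208 probe sets called lower in transgenic diaphragm, 169 (81.3%) followed the mean of the 10 genes at above 0.9, and of the 198 left without their own probe sets 159 (80.3%) did, compared with 2.97% of all probe sets tested. Both measures come from the same 8 arrays, so the share is a description.

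Markers of other cell types had lower correlations with the 10 genes. Of 45 such genes tested in 9 lists, 1 was called lower in transgenic diaphragm and 0 higher (5 at an unadjusted p under 0.05). That is near the share over all probe sets, of which 2.23% were called lower, so the count singles out no cell type. The 1 gene called was Itln1, of mesothelium, with 277 to 374 in wild-type and 29.0 to 199 in transgenic arrays (limma adjusted p = 0.0493), and limb arrays reached 731. Median correlations with the mean of the 10 genes were 0.62 for cells of liver other than hepatocytes (5 genes), 0.41 for enterocytes (4), 0.38 for pancreas (4), 0.29 for lung (3), 0.16 for erythroid cells (3), 0.10 for mesothelium (7), -0.08 for white and -0.42 for brown fat (9 and 3), and -0.22 for kidney (7). The skeletal muscle list (16 genes) had a median of -0.44 and a median log2 difference of 0.35 in the diaphragm, with 0 called. Its summed signal was 143329 to 246916 in wild-type and 214115 to 394754 in transgenic diaphragm, and 245763 to 460126 in limb. The part of any of these cell types in the result was not tested.

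**Figure D5:**
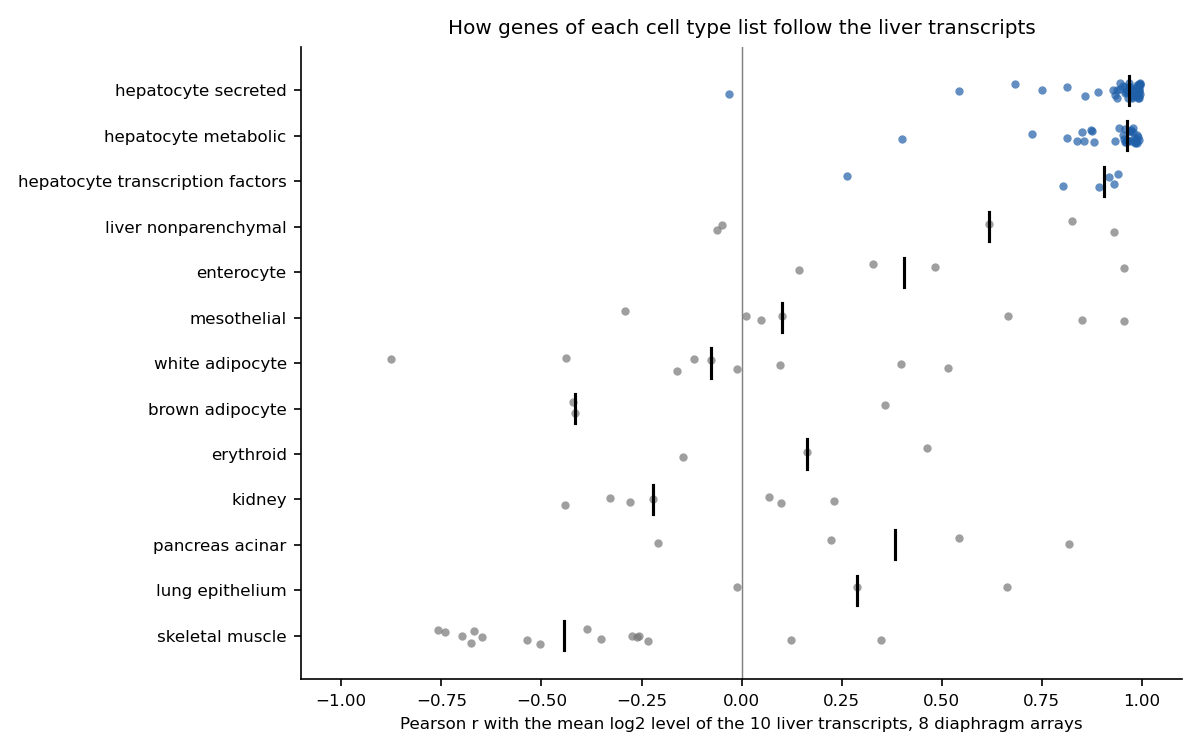
Pearson correlation of each tested gene with the mean log2 level of the 10 liver transcripts over the 8 diaphragm arrays, by cell type list. Each point is 1 gene and the bars mark list medians, which lie at 0.97, 0.96 and 0.91 for the 3 hepatocyte lists and at 0.62 or below for the other lists.

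Some markers of liver cells other than hepatocytes moved with the 10 genes and others did not. Clec4f, a lectin of liver macrophages, measured 835, 383, 133 and 419 in wild-type and 35.6, 459.7, 96.3 and 164 in transgenic diaphragm, with a correlation of 0.93 and limb signals of up to 189.9. Cd5l, a macrophage product chosen after its values were seen, followed at 0.83. Reln measured 323 to 1145 in wild-type and 366 to 761 in transgenic arrays, with a correlation of -0.05. None of the 5 genes of this list was called.

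Gut markers were mostly low. Of 12 enterocyte genes on the array 6 were under 100 on every diaphragm array (Vil1, Cdx1, Cdx2, Lct, Reg3g and Slc5a1), and the summed signal of the list was 1161 to 1688 in wild-type, 667 to 1301 in transgenic diaphragm and 631 to 1545 in limb. Anpep, a peptidase of gut and liver, followed the 10 genes at 0.95 with values of 280.2 to 901, and Krt20 had a correlation of 0.33.

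Mesothelium covers both faces of the diaphragm, and its 7 tested markers, given here after their values were seen, differed among themselves. Upk3b gave 1194 to 1814 in wild-type and 1084 to 1906 in transgenic diaphragm, and 91.8 to 362 in limb, with a correlation of 0.05. Msln ran from 40.3 to 344 and the keratin Krt19 from 146 to 653, with correlations of 0.01 and 0.10. Krt8 and Krt18, keratins of mesothelium and of hepatocytes, had correlations of 0.96 and 0.85, with signals of 200.2 to 875 and 93.0 to 783. Of red cell genes, Hba-a1, alpha globin, lay between 22553 and 32773 on the 8 diaphragm arrays, and Alas2, an enzyme of haem synthesis in red cell precursors, was at 2375 on wild-type replicate 1 at 7 months and between 523 and 916 on the other 7.

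Kidney, pancreas and lung markers were read as checks. Lrp2 and Cubn of kidney had correlations of 0.10 and 0.07, Ctrb1 and Cela1 of pancreas 0.22 and 0.82, and Sftpc and Scgb1a1 of lung 0.29 and 0.66. Cela1 ran from 355 to 760.4 in wild-type and from 217 to 541 in transgenic arrays, and reached 632 in limb. None of these 6 genes was called in the diaphragm.

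Fat and muscle genes showed other patterns. Adipoq, the fat cell hormone adiponectin, ran from 1123 to 4878 with a correlation of -0.01, and Slc2a4, the insulin-regulated glucose transporter of muscle and fat, had a correlation of -0.88, with 2501 to 5814 in wild-type and 3252 to 6389.9 in transgenic arrays. Cidea and Ppargc1a, of brown fat, had correlations of -0.42 each. Acta1 and Atp2a1, the actin and the calcium pump of fast fibres, had correlations of -0.26 and -0.27. Neither these 6 genes nor any other member of the fat and muscle lists was called in the diaphragm.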

How the data were processed

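RNA from 5 mouse muscles was measured on 36 Affymetrix MG_U74Av2 arrays, 1 pool of 3 to 5 mice each. The authors deposited linear signal intensities made with MAS5, as the submitters' processing notes record, with no version or settings given in the sources used here. Deposited scanner run records hold other values per array (scan day), filled for 20 arrays over 9 days and blank for 16. All deposited columns were assigned to samples (0 were not). Trimmed means of the deposited intensities lay between 1500.93 and 1501.29, and each array was rescaled to a 2% trimmed mean of 500. Between 57.3 and 68.4% of probe sets reached 100 per array. The ratio of 3' to 5' Gapdh signal was 0.854 to 1.80 in the diaphragm and up to 3.69 in limb. Precision is limited by the number of arrays.

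After 66 controls were removed, the 9322 probe sets reaching 100 on at least 6 arrays were tested as log2(signal + 50) in limma 3.58.1 (R 4.3.3): muscle by genotype means, an age effect per muscle, intensity trend, and Benjamini-Hochberg adjustment over all probe sets within a comparison, threshold 0.05. Gene symbols came from the platform annotation, and 10839 of 10855 probe sets with 1 symbol matched the RefSeq table. Where a gene had several probe sets, the brightest on average stood for it. On simulated data the limb comparison recovered 92% of 100 changes of 1 log2 unit and 100% of 100 of 2 units, with 8 false calls among 9322 probe sets. The changes were planted in probe sets picked at random, with noise independent between arrays. These rates therefore do not tell what could be detected for genes near background in limb.

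The genes and all lists were chosen with earlier results of these data known. Named genes were all 10 members, per hepatocyte list the 6 with the highest and 4 with the lowest diaphragm signal, the 12 most alike in pattern, and per other list up to 4 past the threshold or else the 2 with the highest signal. Replicate numbers were to pair arrays if same-numbered deviations correlated above 0.1 between all groups. This held for 117 of 120 pairs of groups, so by that rule no block was used in the main fit. The correlations had a median of 0.33 and ran from 0.01 to 0.70. Arrays of the same number thus shared deviations that the main fit does not model. Alternatives were other pseudocounts (16 and 200), no filter, quantile normalization, array weights, 20 group means, scan day and replicate number as blocks, each replicate number alone, the diaphragm or limb arrays alone, and each array left out. Alternatives for the hepatocyte lists were added after seeing the data.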

Additional observations from a re-analysis of the deposited data

Results flagged for a closer look

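Each gene was examined for an array lying far from the other 3 of its genotype in the diaphragm, gastrocnemius and tibialis anterior, on the log2 scale. Each set of 4 arrays mixes both ages, and the genes share arrays, so no rate of chance is set beside the count. Of 60 such sets, 7 held an array that stood apart. In the diaphragm these were Apoa1 on wild-type replicate 1 at 10 months, the lowest of its genotype at 6114, and Orm1 on transgenic replicate 2 at 7 months, the highest of its genotype at 1442.

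The other 5 lay in limb muscles at signals under 100, where values have no order. In gastrocnemius they were Hpx at 19.2 on transgenic replicate 1 at 7 months (the array whose run record names plantaris), Ambp at 22.9 on transgenic replicate 2 at 7 months and Hamp at 10.8 on transgenic replicate 2 at 10 months. In tibialis anterior they were Hamp at 16.2 on wild-type replicate 1 at 10 months and Orm1 at 8.99 on transgenic replicate 2 at 10 months.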

How the results depend on the processing

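In limb, 0 of the 10 genes were past the threshold in limma under any alternative run (lowest adjusted p of the average 0.301), but 8 of them lay near background there, so for those 8 the count shows nothing. In 38 of 470 such values the sign turned, none past the threshold. Gastrocnemius had 0 calls among all probe sets throughout. The median pairwise correlation of the 10 genes in the diaphragm stayed between 0.956 and 0.980, leaving out single arrays included (0.969 to 0.980). The median log2 difference in the diaphragm ran from -4.31 (replicate number 1 only) to -1.95 (number 2 only), and from -4.26 to -2.20 with single arrays left out.

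Counts of calls moved more, and the causes were not tested. Of all probe sets 319 were called in the diaphragm, 37 over the limb average, 1 in EDL, 0 in plantaris and 14 in tibialis anterior. With the replicate block these were 536, 159, 2, 1 and 27. Array weights gave 633 in the diaphragm, 68 over the limb and 2 in plantaris, and 20 group means gave 204, 23 and, in EDL, 3. Scan day as a block gave 146 in the diaphragm, 156 over the limb, 4 in EDL and 44 in tibialis anterior. Replicate number 1 alone gave 7 over the limb, 5 in EDL and 4 in tibialis anterior, number 2 alone 0 in the diaphragm, 1 over the limb, 0 in EDL and 5 in tibialis anterior. Quantile normalization gave 1 in plantaris, and the diaphragm arrays alone 2 in the diaphragm. With single arrays left out the counts were 65 to 429 in the diaphragm, 22 to 59 over the limb, 1 to 1 in EDL, 0 to 1 in plantaris and 7 to 18 in tibialis anterior.

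Of the 10 genes 9 were called in the diaphragm, 5 with scan day as a block, 0 with replicate number 2 alone and 0 with the diaphragm arrays alone, and 6 to 10 with single arrays left out. Of the hepatocyte lists 62 were called lower, 18 with scan day as a block, 0 with number 2 alone (34 at an unadjusted p under 0.05), 0 with the diaphragm alone (74 unadjusted), and 12 to 73 with single arrays left out. The lone call among markers of other cell types became 0 with a pseudocount of 16, with 20 group means, with scan day, with either replicate number alone and with the diaphragm alone, 2 with a pseudocount of 200 and with the replicate block, and 0 to 3 with single arrays left out. Signals under 100 limit the limb comparisons.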

Other observations

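Single arrays held high values of some liver genes and not of others (genes picked here with their values in view). On wild-type replicate 2 at 10 months Saa2, a serum amyloid A protein, measured 2060.2, with 181 to 493 on the other 7 diaphragm arrays and 45.9 to 363 on limb arrays. Orm2 measured 1102 there and 14.99 to 184 elsewhere in the diaphragm, and Hpx was at its highest there, at 18830.0. Other genes of the acute phase were divided. Hp was highest on that array as well, at 16445, with at most 9176 on the other diaphragm arrays. Itih3, Itih4, C9 and Crp were also highest there, at 3581, 3600, 1148 and 525. On the other diaphragm arrays they reached at most 3157, 3072, 1039 and 505. Orm1, Hamp, Apcs, Fgb and Fgg were not highest there. They measured 2686, 7515, 2244, 2573 and 4122 on that array and 3053, 14561, 2413, 3083 and 4867 on wild-type replicate 1 at 7 months. On wild-type replicate 1 at 7 months Tat was at 16379.7, with 2656 on the other wild-type array of that age, and Hamp was at 14561 with 4826. Each of these is a value of 1 pool, with no replicate of its own.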
